A study of Cucumis sativus with 4 samples.

Results

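A set of 5 known regulators of cucumber trichomes, the hairs and spines that grow out of the epidermis, was followed in first true leaves in which CsTCP18a had been targeted by RNA interference. They are CsGL1 (Csa3G748220, also called MICT), CsGL3 (Csa6G514870, also called TRIL), CsTTG1 (Csa4G097650), CsMYB6 (Csa3G824850) and CsTRY (Csa5G139610). The members were chosen by locus ID, and all 5 of 5 IDs were found among the 17585 genes of the expression table. Every gene in that table had a second-highest value of at least 0.892 normalised CPM (explained below), so scarcer genes are absent from it. CsGL1, CsMYB6 and CsTRY lay under that value in both wild type libraries, so their presence in the table rests on the RNAi libraries. The table gives IDs without names, and the names rest on the list of members, since 0 of the 17585 IDs matched the cucumber gene table used as reference.

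Cucumber (Cucumis sativus) of the inbred line R1461 was transformed through Agrobacterium strain GV3101, either with a construct carrying a 402-bp piece of the coding sequence of CsTCP18a, a TCP-family transcription factor related to BRANCHED1, or with the empty PFGC-1008 vector. Empty-vector plants are called wild type in the labels and in what follows, so both groups carry vector sequence. The first true leaf was taken at a plant age of 20 days, after growth in days of 16 h (25 °C) and nights of 8 h (18 °C), and each group held 2 libraries. Whether replicate libraries stand for different plants, pools or transgenic lines is not stated, and the p-values reflect only how far replicates of these 4 libraries lay apart, a spread that may be technical. Whole leaves were sampled, and a change in the number of cells of a type cannot be told apart from a change in RNA per cell.

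In cucumber, trichomes on leaves, stems and fruit begin as single epidermal cells that enlarge and divide into stalked multicellular hairs. CsGL3 encodes an HD-ZIP IV homeodomain protein needed for trichomes to start, and CsGL1 encodes an HD-ZIP I homeodomain protein needed for their further differentiation, with CsGL3 acting upstream of CsGL1 in mutant studies. Despite the shared names, neither is the counterpart of the Arabidopsis MYB protein GL1 or the Arabidopsis bHLH protein GL3. CsTTG1 encodes a WD-repeat protein that promotes the formation of fruit spines and can bind CsGL1 protein. CsMYB6, a MYB transcription factor, and CsTRY, a small MYB protein related to the Arabidopsis inhibitor TRIPTYCHON, have been described as an interacting pair that restrains trichome initiation on cucumber fruit.

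The gene-assigned reads recovered from the deposited values numbered between 18930131 and 27664402 per library. Values are given as normalised CPM, read counts set relative to a scaled library size, and 1 read is worth between 0.0319 and 0.0573 normalised CPM. Differences between the groups were widespread: 60.6% of the 17491 genes tested were called in limma's moderated test (Benjamini-Hochberg adjusted p under 0.05 over the genes tested). The median gene differed by 0.24 log2 units between the wild type replicates and by 0.12 between the RNAi replicates, against 0.73 between the group means. Log2 values correlated (Pearson) at 0.688 to 0.706 between libraries of different groups, at 0.971 within wild type and at 0.994 within RNAi. Whether the groups differed in anything besides the construct is not stated, and the cause of the differences was not tested. The ID of CsTCP18a was not paired with a name, so the silencing of the target and the tissue label were not checked here.

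Transcripts of CsGL3, CsGL1, CsMYB6 and CsTRY stayed under 2 normalised CPM in each wild type library. They were higher in the RNAi leaves in limma's test, whereas CsTTG1, with at least 27.7 normalised CPM in each library, did not pass. Thus 4 of the 5 members were called higher, against 31.0% of genes tested, and 0 were called lower, against 29.5%. The increases ranged from 8.58-fold for CsTRY to 767-fold for CsMYB6 in the ratio of summed reads. The list was chosen with earlier results of these data known. Moreover CsGL1, CsMYB6 and CsTRY stayed under 1 normalised CPM in both wild type libraries, so they met the filter of the test (at least 1 in at least 2 libraries) through the RNAi libraries alone and had to differ. The count of 4 is therefore a description and carries no support of its own.

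**Figure D1:**
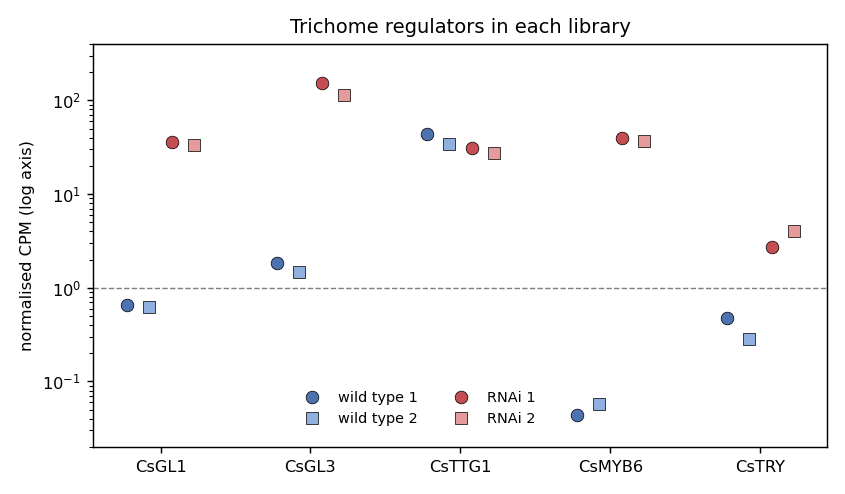
Normalised CPM (log axis) of the 5 members in each of the 4 libraries; each symbol is 1 library and the dashed line marks 1 normalised CPM. CsGL1, CsGL3, CsMYB6 and CsTRY lie lower in both wild type libraries than in both RNAi libraries, while the wild type values of CsTTG1 (43.4 and 34.1) lie just above its RNAi values (31.1 and 27.7).

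CsGL3, the homeodomain gene placed upstream in trichome initiation, had 1.84 and 1.49 normalised CPM in the wild type libraries (replicate 1, then replicate 2, here and below), from 42 and 26 reads. In the RNAi libraries it had 152 and 115 normalised CPM, from 4268 and 3594 reads. Both RNAi values lay far above both wild type values, and the lower RNAi value was 62.4 times the higher wild type value. The group means were 1.66 ± 0.245 and 133 ± 26.6 normalised CPM (SD, n = 2 each). In summed reads RNAi leaves had 78.6 times the wild type level, with a 95% counting interval of 61.9 to 101. On the log2(normalised CPM + 1) scale, which understates changes of scarce transcripts, the increase was 5.65 (SE 0.19, 95% confidence interval 5.14 to 6.15, limma adjusted p = 0.000131). Of the 17491 genes tested, 0.440% had a larger increase on that scale. CsGL3 reached 1 normalised CPM in all 4 libraries, as did 15033 genes, and 19 of these (0.126%) had a larger log2 increase than CsGL3.

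The RNAi libraries differed from each other more for CsGL3 than for most genes. RNAi replicate 1 had 1.33 times the normalised CPM of replicate 2 (95% counting interval 1.27 to 1.39), and 6.45% of genes tested had a larger log2 difference between these libraries. That difference of 0.41 log2 units was small beside the 5.65 between groups. For CsGL1 and CsMYB6 the same ratio was 1.09 (0.999 to 1.19) and 1.08 (0.992 to 1.17). The unequal level of CsGL3 in the RNAi libraries was thus not shared in size by these genes. CsTRY, however, also differed by 0.41 log2 units between the RNAi libraries, with replicate 2 the higher.

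CsGL1, the homeodomain gene of trichome differentiation, had 0.656 and 0.630 normalised CPM in the wild type libraries, from 15 and 11 reads. In the RNAi libraries it had 36.3 and 33.3 normalised CPM, from 1016 and 1043 reads. Replicates lay close together, but the wild type ratio of 1.04 (replicate 1 over replicate 2) had a 95% counting interval of 0.447 to 2.51. The groups were well separated, with the lower RNAi value at 50.7 times the higher wild type value. The means were 0.643 ± 0.0182 in wild type and 34.8 ± 2.11 in RNAi leaves (SD, n = 2 each), and the ratio of summed reads was 53.8 (36.6 to 82.6). The log2 increase was 4.44 (SE 0.17, 95% confidence interval 4.01 to 4.87, limma adjusted p = 0.000141). The set of genes that, like CsGL1, were under 1 in both wild type libraries and at 1 or more in both RNAi libraries held 1109 genes with a median log2 change of 2.0, and 95% of them were called. Within that set 142 genes (12.8%) had a larger increase than CsGL1.

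CsMYB6, one of the pair described as restraining fruit trichomes, was represented by 1 read in each wild type library, or 0.0437 and 0.0573 normalised CPM. The RNAi libraries held 1109 and 1150 reads, or 39.6 and 36.7 normalised CPM. Its wild type level thus lay at the lowest nonzero value that either library can show. RNAi leaves had 767 times the wild type level, but with only 2 wild type reads its 95% counting interval ran from 212 to 6340. The log2 increase was 5.22 (SE 0.17, 95% confidence interval 4.78 to 5.65, limma adjusted p = 0.000125). Its size depended on how values near 0 were handled and lay between 3.09 with a pseudocount of 5 and 9.58 in DESeq2. CsMYB6 was the 1 member among the 197 genes of the table with an RNAi mean of at least 10 and under 0.5 normalised CPM in both wild type libraries.

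CsTRY, the other gene of that pair, had 0.481 and 0.286 normalised CPM in wild type, from 11 and 5 reads, and 2.75 and 3.99 in the RNAi libraries, from 77 and 125 reads. The groups did not overlap, and the lower RNAi value was 5.71 times the higher wild type value. The ratio of summed reads was 8.58 (5.15 to 15.3). The log2 increase was 1.65 (SE 0.22, 95% confidence interval 1.07 to 2.22, limma adjusted p = 0.00319), and 11.9% of all genes tested had a larger one. Within the 1109 genes that were under 1 in both wild type libraries and at 1 or more in both RNAi libraries, 59.2% had a larger log2 increase than CsTRY. Its RNAi replicates stood in the reverse order of the other members, with replicate 1 at 0.689 times replicate 2 (0.512 to 0.923). The log2 increase lay between 0.63 with a pseudocount of 5 and 3.10 in DESeq2.

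CsTTG1, the WD-repeat gene, was transcribed in every library. It had 43.4 and 34.1 normalised CPM in wild type, from 993 and 595 reads, and 31.1 and 27.7 in the RNAi libraries, from 872 and 870 reads. The groups did not overlap, but the gap between them was smaller than the distance between the wild type replicates. The means were 38.7 ± 6.60 and 29.4 ± 2.38 normalised CPM (SD, n = 2 each), and RNAi leaves had 0.745 times the wild type level (0.696 to 0.798, counting error only). The log2 change was -0.38 (SE 0.16, limma adjusted p = 0.103), with a 95% confidence interval of -0.80 to 0.05, so a decrease of up to 0.80 log2 units is within the interval. Without wild type replicate 2 the change was -0.55 with an adjusted p of 0.0087 in limma, and CsTTG1 was then called lower, as were 34.8% of genes tested. With plain CPM, which divides by the column total only, the change was 0.00 (limma adjusted p = 0.991). Plain CPM moved the median of all genes from 0.03 to 0.38, and relative to that median CsTTG1 stood at -0.38.

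**Figure D2:**
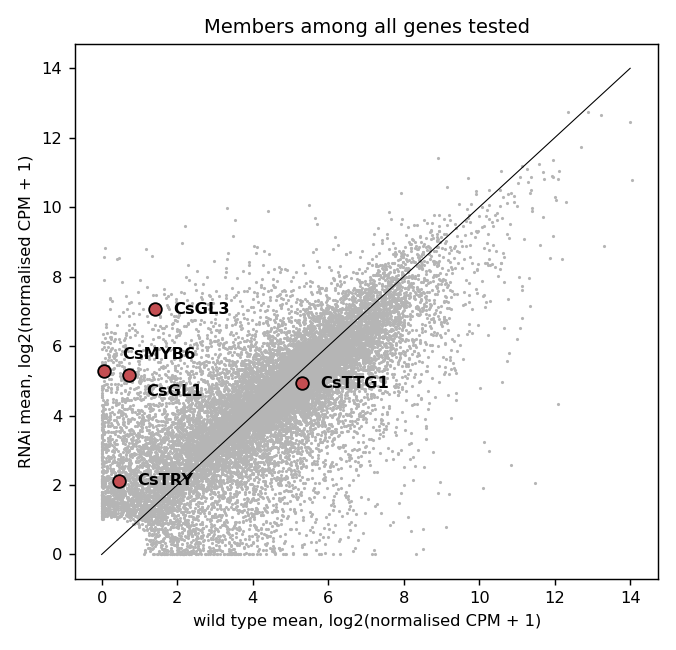
Mean log2(normalised CPM + 1) in the 2 wild type libraries (x axis) and the 2 RNAi libraries (y axis); grey dots are the 17491 genes tested, red circles the 5 members, and the line marks equal values. CsGL3, CsMYB6 and CsGL1 lie at the left, far above the line, CsTRY lies closer to it, and CsTTG1 lies slightly below it inside the main cloud of genes.

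For each of the 5 members the groups were free of overlap, with 4 higher and 1 lower in RNAi. Groups without overlap were common in these libraries, at 42.8% of genes tested for higher and 40.8% for lower values in RNAi. On the recovered reads, edgeR's quasi-likelihood test called the same 4 members higher (29.6% of genes were called higher by it) and so did DESeq2 (29.3%). CsGL1, CsMYB6 and CsTRY passed the same filter through the RNAi libraries alone. For them these calls, and the refits below, add no support. The adjusted p of CsTTG1 was 0.0975 in edgeR and 0.136 in DESeq2. Leaving out either RNAi library raised the adjusted p of CsGL1, CsGL3 and CsMYB6 to at most 0.0212 and that of CsTRY to at most 0.0321 in limma, and their direction did not turn.

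**Figure D3:**
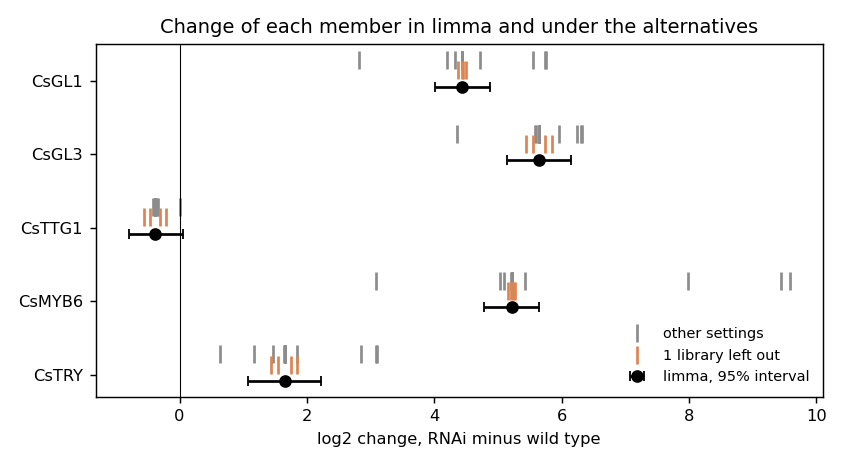
Log2 change (RNAi minus wild type) of each member; black circles with bars are limma's estimate and 95% confidence interval, orange ticks the values with 1 library left out, and grey ticks the values under other pseudocounts, filters, scalings and tests. CsGL1, CsGL3, CsMYB6 and CsTRY stayed above 0 under each setting run, with CsMYB6 spread most widely (3.09 to 9.58), whereas CsTTG1 lay between -0.55 and 0.00.

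Ratios of members within a library do not depend on how libraries are scaled, as long as no pseudocount is added, and they show how the makeup of the group shifted. Without gene lengths, a ratio cannot be read as which gene is the more abundant, only its change between groups. The log2 ratio of CsGL3 to CsTTG1 was -4.56 and -4.52 in the wild type libraries and 2.29 and 2.05 in the RNAi libraries. That of CsGL1 to CsTTG1 was -6.05 and -5.76 in wild type and 0.22 and 0.26 in RNAi. Both homeodomain genes thus moved by several log2 units relative to the WD-repeat gene in each RNAi library.

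The homeodomain genes moved less against each other than against CsTTG1. The log2 ratio of CsGL1 to CsGL3 was -1.49 and -1.24 in wild type and -2.07 and -1.78 in RNAi, a change of -0.56, or -1.2 with a pseudocount of 1. The log2 ratio of CsMYB6 to CsTRY was -3.46 and -2.32 in wild type, where it rests on 1 CsMYB6 read per library, and 3.85 and 3.20 in RNAi. The described pair of inhibitors therefore did not keep a constant ratio: CsMYB6 gained 6.42 log2 units on CsTRY, or 3.57 with a pseudocount of 1. For CsGL3 against CsMYB6 the sign of the change depended on that choice, at 0.43 with the pseudocount and -3.25 without it.

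The 10 pairs share 5 genes and are not independent. The exact two-sided permutation p was 0.333 for each pair, also after Benjamini-Hochberg adjustment over the 10 pairs, and 0.333 is the smallest value that 2 libraries against 2 can give. The differences in size between members are therefore given as values only.

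**Figure D4:**
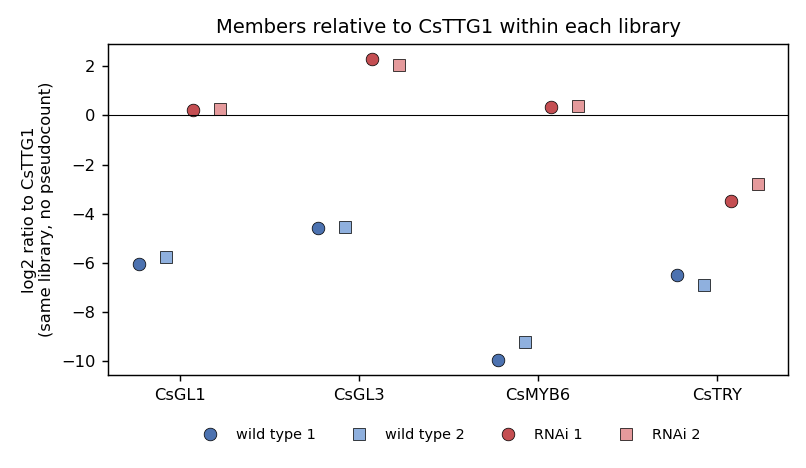
Log2 ratio of CsGL1, CsGL3, CsMYB6 and CsTRY to CsTTG1 in the same library, without pseudocount; each symbol is 1 library and the line at 0 marks equal normalised CPM, not equal abundance per length. The RNAi libraries lie above the wild type libraries for each gene. Read the other way, the mean log2 ratio of CsTTG1 to CsMYB6 changed by -9.96, or -5.6 with a pseudocount of 1. The change without pseudocount rests on 1 CsMYB6 read in each wild type library. The mean log2 ratio of CsTTG1 to CsTRY changed by -3.55, or -2.02 with the pseudocount.

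IDs close in number to the members were read as a description of their surroundings in the table. The files do not state that numbers follow the order along the chromosome. Within 50 ID numbers of the 5 members lay 40 other tested IDs, of which 13 were called higher (32.5%) and 11 lower in limma's test, with a median log2 change of 0.14. The share of higher calls lay near the 31.0% of all genes tested, and 29.5% of all genes tested were called lower. For CsGL1, the 9 close IDs changed by -3.37 to 2.37, and 4 were called higher and 2 lower. For CsMYB6, the 8 close IDs changed by -1.94 to 0.64, and 1 was called higher and 3 lower. For CsTTG1, 0 of 4 were called higher and 1 lower, and for CsTRY 4 of 10 were called in each direction.

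Around CsGL3, 4 of 9 close IDs were called higher and 1 lower, beside 31.0% and 29.5% of all genes tested. Among these close IDs was Csa6G514850, whose number is 20 below that of CsGL3 and which had the largest increase of all genes tested. It had 0.0874 and 0.0573 normalised CPM in wild type, from 2 reads and 1 read, and 475 and 434 in the RNAi libraries, a log2 increase of 8.73 (SE 0.13). It was picked for its large change and, like CsGL1, CsMYB6 and CsTRY, met the filter through the RNAi libraries alone, so these values are a description. The ID between them in number averaged 68.2 in wild type and 50.9 normalised CPM in RNAi and was not called, with a log2 change of 0.22 (SE 0.95, limma adjusted p = 0.854) and a spread that leaves its direction undetermined. No name is paired with Csa6G514850 in the files.

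**Figure D5:**
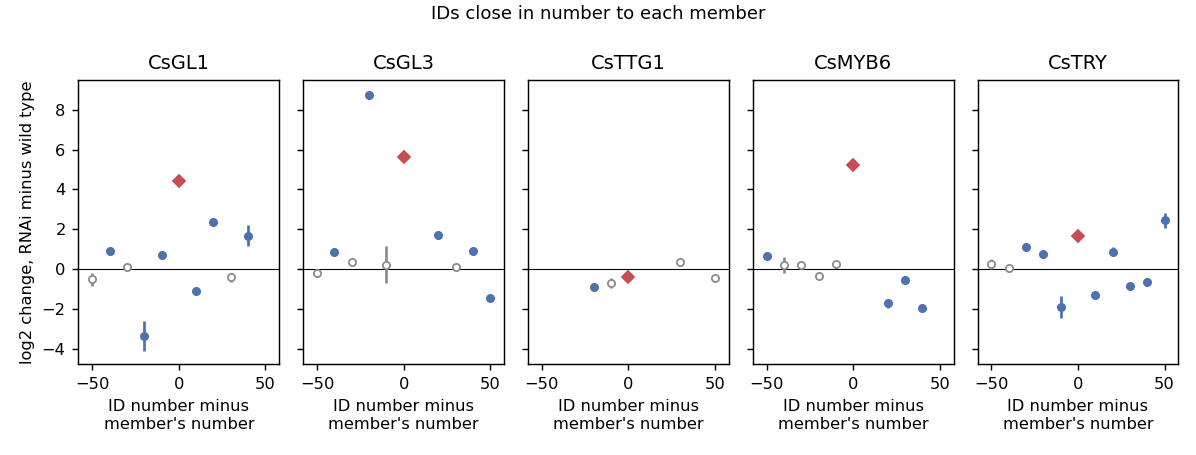
Log2 change (RNAi minus wild type, bars are standard errors) of IDs whose number lies within 50 of each member's; red diamonds are the members, filled blue circles IDs called in limma's test and open grey circles IDs not called. The IDs close to each member go both ways, and close to CsGL3 the point at 8.73 is Csa6G514850.

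Genes with the pattern most like a member were sought by the Euclidean distance between log2(normalised CPM + 1) values over the 4 libraries. For CsGL1 the nearest ID was Csa5G590170, at a distance of 0.230, with 0.525 and 0.515 normalised CPM in wild type and 32.4 and 32.2 in RNAi. For CsTTG1 it was Csa4G639210, at 0.0797, with 44.1 and 35.1 in wild type and 29.8 and 27.5 in RNAi. The patterns differed in how common they were: within a distance of 0.5 lay 323 IDs for CsTTG1, 44 for CsTRY, 25 for CsMYB6, 15 for CsGL1 and 2 for CsGL3. With 4 libraries in 2 groups such likeness reflects little more than the 2 group means.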

How the data were processed

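The authors deposited 1 table with a normalised expression signal per gene and library, called CPM in its sheet name. Per the submitters' processing notes, TopHat and HTSeq were used (versions not given). Build, strand setting and scaling method are likewise not given in the sources, so reads shared by overlapping genes or near-identical copies cannot be told apart. Column totals ran from 869612.6 to 1209165.3, so the values are not plain CPM. In each column 100% of values were whole multiples of 1 step (within 0.01 read), which gave back whole reads.

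Limma 3.58.1 (R 4.3.3) with a mean-variance trend was run on log2(value + 1) of the whole table, with at least 1 in at least 2 libraries and no replicate block. A plan that assumed plain CPM was kept. Alternatives included edgeR 4.0.16 and DESeq2 1.42.0 on the recovered reads. The tests were checked on simulated counts, with smaller changes and higher wild type levels than those of the members called higher. That check therefore does not cover these members. Read-ratio intervals are exact (Clopper-Pearson), on summed reads, and cover counting error only, as PCR copies are not independent molecules. The members and lists were chosen with earlier results of these data known. Other IDs were named by a rule: the ID within 20 of a member's number with the largest change, then the nearest patterns in member order, to at most 2 higher and 2 lower. Of the candidates, 2 higher and 1 lower met it. Planned lists of other trichome genes and leaf markers could not be read without names.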

Additional observations from a re-analysis of the deposited data

How the results depend on the processing

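Each of CsGL1, CsGL3, CsMYB6 and CsTRY was called higher under each alternative that tested it. For CsGL1, CsMYB6 and CsTRY this adds no support, since they entered the tests through the RNAi libraries alone. CsTRY was not tested with a filter of 5, which left 3 members called higher, against 30.7% of the genes tested with that filter. CsGL3, at 1.84 and 1.49 normalised CPM in wild type, also met that filter through the RNAi libraries alone. That count of 3 therefore adds no support. The share of all genes called higher also moved with the setting, to 43.1% with plain CPM. For CsTTG1, plain CPM gave a change of 0.00 in place of -0.38. With the median of all genes removed, an alternative chosen after seeing the data, it was -0.38 again (limma adjusted p = 0.0813). Plain CPM changes only the scale of each library, so this return follows by arithmetic and does not show which scaling is right. Leaving out 1 library gave CsTTG1 between -0.55 and -0.21 and between 0 and 1 members called lower, the 1 being CsTTG1 without wild type replicate 2; the cause was not tested. The single library left in a group is there given the spread of the other group. Without a pseudocount the ratio of CsGL3 to CsMYB6 changed by -3.25 in place of 0.43, since the wild type values of CsMYB6 rest on 1 read each. A replicate block changed no call of a member (CsTTG1 -0.38, adjusted p = 0.1). Replicate numbers were not taken as pairs, as no label ties them and the differences between replicates correlated at -0.0937 across genes between the groups. A spread estimated per group, also added after seeing the data, changed no call of a member. Of the other named IDs, Csa4G639210 passed under 3 alternatives and not in the reported test. Depth limits CsMYB6 and CsTRY, with 2 and 16 wild type reads in all.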
